A study of Rattus norvegicus with 12 samples.

Results

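Selenoprotein W (Sepw1) and 8 further genes of selenium biology were followed in the medial prefrontal cortex (mPFC) of 12 rats. The 9 genes, out of 29009 in the table of counts, were taken by their symbols: Sepw1, Gpx1, Gpx4, Txnrd1, Txnrd2, Sepp1, Dio2, Sephs2 and Secisbp2. The set was selected on the CPM of Sepw1, which stood higher in both groups with chronic prefrontal activation (CPA) than in controls, so its values in those comparisons are given as a description with no test. The other 8 were chosen to set beside it, and they were tested.

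All rats were adult male Sprague Dawley rats, with 1 mRNA library per rat and 4 rats per group. CPA rats carried an adeno-associated virus in the mPFC for hM3Dq, an engineered excitatory receptor, fused to the fluorophore mCherry and driven by a CaMKIIa promoter, which is active in excitatory neurons. The virus of control rats encoded only a fluorophore. All groups, controls included, drank the hM3Dq ligand CNO at a calculated 2 mg/kg for 10 days. They then received 7 days of once-daily treatment, which was vehicle in the groups control+veh and CPA+veh and the oxytocin receptor agonist RO6958375 at 0.07 mg/kg in the group CPA+RO. Tissue was dissected from brain slices after electrophysiology, some rats had in addition received a retrograde reporter virus, and no label ties a library to 1 of the cohorts of rats.

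Selenoproteins carry selenocysteine, an amino acid inserted at a UGA codon that would otherwise end translation. Insertion needs a hairpin in the transcript, the SECIS element, a protein that binds it (Secisbp2), a dedicated tRNA and the enzymes that build selenocysteine on that tRNA. Most selenoproteins of known function are redox enzymes that use glutathione or thioredoxin, and the brain is known to hold selenium when the diet is short of it. Sepw1 encodes a small thioredoxin-like protein that is abundant in muscle and brain. In rodent liver, transcripts of Gpx1, Sepw1 and Selh are known to fall when selenium is short while that of Gpx4 is kept, so these 4 are described with that in mind. Selenium was not measured here.

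Sepw1 (NCBI gene 25545, named Selenow in RefSeq) lies on the minus strand of chromosome 1 of the GRCr8 build from 85727631 to 85732703. It is the only row of the table whose symbol begins with Sepw or Selenow. The promoter window of Sepw1 is shown because the set was selected on the CPM of that gene. It holds the 250 bases before the RefSeq start and the first 10 bases after it, chr1:85732694-85732953, read 5′ to 3′ on the gene's strand, with motif matches in capitals.
Sepw1: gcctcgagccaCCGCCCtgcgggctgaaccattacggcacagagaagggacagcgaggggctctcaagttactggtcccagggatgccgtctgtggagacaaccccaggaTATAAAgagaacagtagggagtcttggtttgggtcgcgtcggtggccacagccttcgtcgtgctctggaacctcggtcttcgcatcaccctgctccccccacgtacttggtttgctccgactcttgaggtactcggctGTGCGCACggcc
The capitals mark a GC box (GGGCGG, on the other strand), a TATA box (TATAAA, from base -140 before the start) and the metal response core TGCGCNC. That core, which zinc-responsive Mtf1 is known to bind, matches on both strands in overlapping letters around the start (from bases -2 and -1). Windows of 260 bases were searched on both strands at all 33469 RefSeq starts. Of these, 12.3% hold TGCGCNC, 13.2% TATAAA and 31.2% GGGCGG. Among the 24 rat selenoprotein genes, TGCGCNC is found in the windows of 5 (Sepw1, Dio3, Selt, Sep15 and Ept1), TATAAA in 5 (Sepw1, Sepp1, Dio2, Dio3 and Selt) and GGGCGG in 15. The related core TGCACNC, the antioxidant response core TGACNNNGC and the cAMP response element TGACGTCA have no match in the Sepw1 window, and are in 10.7%, 10.5% and 1.69% of all windows. A match is a description of letters only.

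Total counts were 64993543 to 79006972 per library, and low counts are nearly all even, as when each fragment is counted through both its reads, so fragments are fewer than counts. Levels are given in CPM, the counts divided by TMM-scaled library sizes, and SE stands for the standard error of a fitted log2 fold change. Of the 29009 genes, 19094 passed a filter on low counts and were tested with edgeR's quasi-likelihood test, with Benjamini-Hochberg adjustment over those genes in each comparison. All 9 members passed the filter. Cortical neuron markers were abundant, as the tissue label has it: the 7 markers of excitatory neurons (such as Slc17a7) summed to 3489 to 4592 CPM per library. CPA+veh replicates 1 and 2 stood apart from the other libraries. The 8 oligodendrocyte markers summed to 4966 and 3456 CPM there and to 2519 to 2962 in the other 10 libraries, and the 8 endothelial markers to 106 and 111 CPM against 147 to 201. In bulk tissue, more cells of a type and more RNA per cell cannot be told apart.

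Sepw1 was about 2 times as high in both CPA groups as in controls, and higher in every CPA library than in any control library. It was at 35.7, 44.7, 49.9 and 44.5 CPM in the 4 control+veh rats. In CPA+veh it was at 118, 84.5, 71.95 and 71.5 CPM, and in CPA+RO at 88.0, 82.1, 82.3 and 124 CPM. The lowest CPA library was thus 21.6 CPM above the highest control library, and the highest values belonged to 1 rat of each CPA group. Taken 1 group at a time, such a separation from controls held for 1.9% of all genes in CPA+veh and 2.83% in CPA+RO. The share of genes for which both held was not counted, and Sepw1 was chosen for this separation. The fitted log2 fold changes against control+veh were 0.98 (SE 0.17) in CPA+veh and 1.11 (SE 0.17) in CPA+RO. Among the 9842 genes of at least 10 CPM in control+veh, 2 had a larger log2 fold change in CPA+veh and 4 in CPA+RO. That place, too, follows from how Sepw1 was chosen and is a description only. Both comparisons share the control rats. The virus and the activation it allowed cannot be told apart in this design.

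Sepw1 was chosen for being high in CPA+RO as well as in CPA+veh, so a return to the control level under RO6958375 could not have appeared here. The 2 CPA groups are therefore compared as a description only. CPA+RO minus CPA+veh was 0.12 on the log2 scale (SE 0.17), and the libraries of the CPA groups overlapped. With 1 rat left out, that small difference ranged from -0.04 (without CPA+RO replicate 4) to 0.31 (without CPA+veh replicate 1). It was 0.39 when CPA+veh replicates 1 and 2 were both left out, which was decided after the data had been seen. Without those last libraries, the log2 fold change of CPA+veh against control+veh was 0.72.

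Sepw1 is a short transcript (gene model of 700 bases), and libraries differed in how levels varied with transcript length. At its length, the smooth trend of all genes lay 0.12 and 0.18 above the control mean on the log2 scale in CPA+veh replicates 1 and 2, and between -0.05 and 0.07 in the other 10 libraries. Sepw1 itself lay 0.72 to 1.52 above the control mean in the 8 CPA libraries. With the trend removed, its log2 fold changes were 0.91 in CPA+veh and 1.12 in CPA+RO. Ttr, the transthyretin of choroid plexus, also separated controls (0.232 to 0.425 CPM) from CPA libraries (0.483 CPM and above) at very low levels. For 1 group at a time, such a separation held for 1.9% of all genes in CPA+veh and 2.83% in CPA+RO. Of the 4 choroid plexus markers tested, 1 had a log2 fold change above 0 in CPA+veh and 3 below. In CPA+RO, 2 were above and 2 below. The largest log2 fold changes among these markers were 1.76 in CPA+veh and 1.58 in CPA+RO against control+veh. DESeq2 called 1 of them in each comparison, beside 0.499% and 0.391% of all genes. Neither edgeR (smallest adjusted p = 0.0571 and 0.103) nor limma-voom called any. The 7 choroid plexus markers together summed to 5.43 to 14.8 CPM in control+veh, 6.19 to 13.3 in CPA+veh and 8.54 to 13.6 in CPA+RO. None of the 7 was at 0 in any group. The 6 inhibitory neuron markers summed to 675 to 692 CPM in control+veh, 716 to 739 in CPA+veh and 675 to 762 in CPA+RO. The 7 excitatory neuron markers summed to 3489 to 3949 CPM in control+veh, 3859 to 4592 in CPA+veh and 3831 to 4336 in CPA+RO. Their means were 3647, 4174 and 4078 CPM in the same order. The part of the length trend or of any of these markers in the Sepw1 values was not tested.

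**Figure D1:**
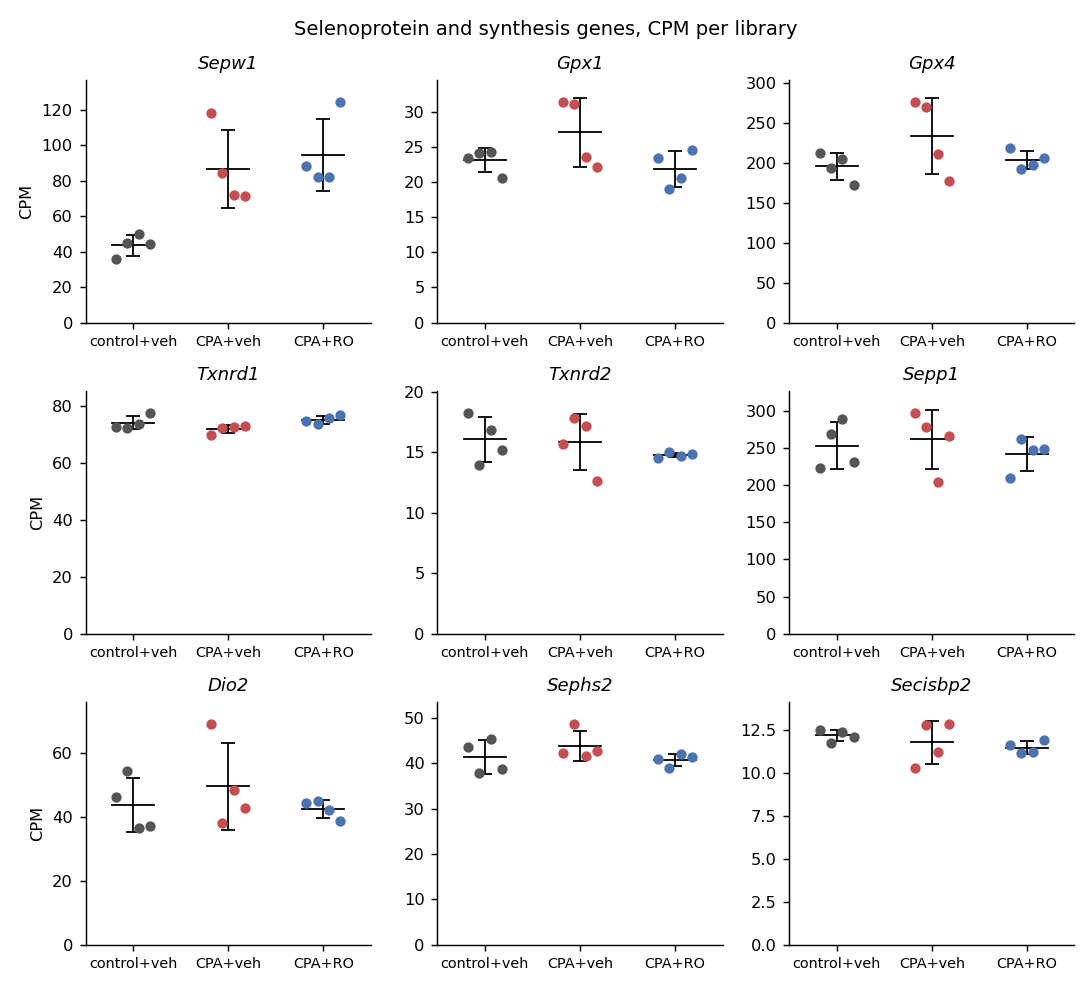
Level of each of the 9 genes in CPM (vertical axis, from 0) in the 3 groups of 4 rats; points are libraries in order of replicate, horizontal lines are means and bars are SD (n = 4). Sepw1 is the gene whose 8 CPA libraries all lie above the 4 control libraries, while Gpx1 and Gpx4 are high in CPA+veh replicates 1 and 2.

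To see how Sepw1 ranks among its family, levels were compared per length, in the RPKM that the authors deposited. A higher place in the CPA groups follows from how Sepw1 was chosen and is a description only. In control+veh, Sepw1 was the seventh of the 24 selenoproteins at 63.3 ± 8.2 RPKM (SD, n = 4). The transcripts above it were Gpx4 (173 RPKM), Sep15 (129), Sepp1 (119), Selm (76.4), Selk (71.9) and Selt (69.5), and its range of 52.4 to 72.3 RPKM overlapped those of Selm, Selk and Selt. In CPA+veh it was the third at 123 ± 30 RPKM (SD, n = 4), its range of 101 to 165 overlapping Gpx4, Sep15, Sepp1 and Selm. In CPA+RO it was the second at 134 ± 29 RPKM (SD, n = 4), above Sep15 (123) and below Gpx4 (176). Its range there, 116 to 177, overlapped Gpx4, Sep15 and Sepp1.

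Below these came a middle class in control+veh, from Msrb1 (27.2 RPKM), a repair enzyme of oxidized methionine, through Gpx1 (26.7), Txnrd1 (21.9) and Sephs2 (18.1) to secreted Gpx3 (16.7). Txnrd2 (8.30 RPKM), Dio2 (7.00) and Dio3 (2.58) were lower. Selv, Dio1, the deiodinase of liver and kidney, and Gpx2, the glutathione peroxidase of gut, were all under 0.3 RPKM in control+veh, with 102, 104 and 40 counts over the 4 libraries.

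**Figure D2:**
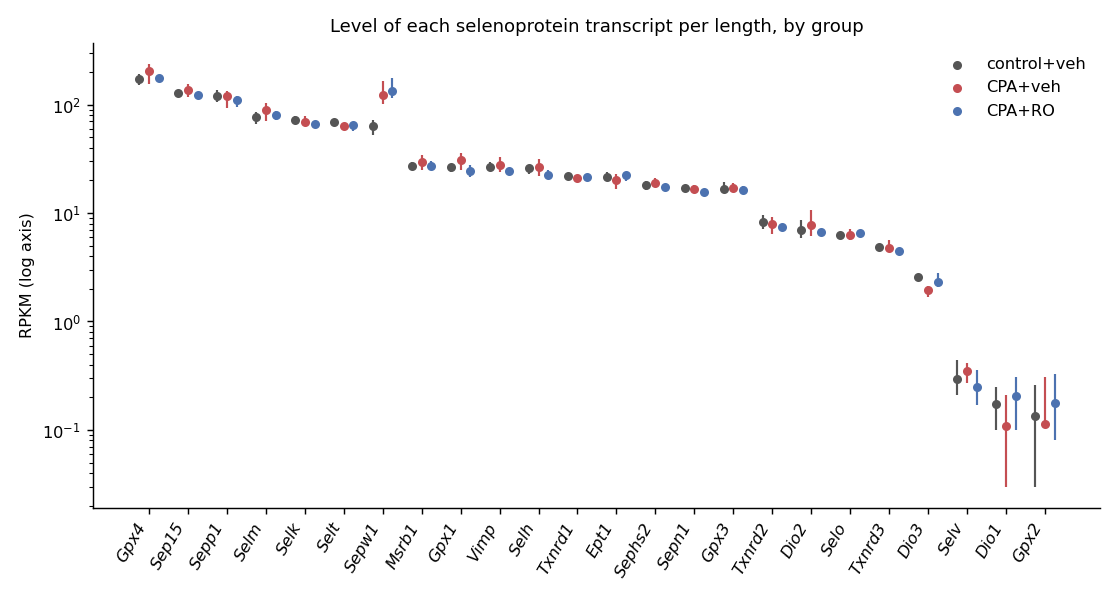
Mean RPKM (points, log axis) and the range over 4 libraries (lines) for the 24 selenoproteins in the 3 groups, in order of the control level; where the lowest library is at 0, the line starts at the mean. Sepw1 moves from 63.3 in control+veh to 123 in CPA+veh and 134 in CPA+RO, while Gpx4 is first in every group.

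Within each library, Sepw1 made up 5.48, 6.94, 7.42 and 7.33% of the summed RPKM of the 24 selenoproteins in control+veh. Its share was 14.2, 10.6, 10.8 and 11.1% in CPA+veh and 12.9, 12.2, 12.3 and 17.1% in CPA+RO. The larger share in the CPA groups, too, follows from how Sepw1 was chosen. The other 23 summed to 814 to 904 RPKM in control+veh and 834 to 856 in CPA+RO, while in CPA+veh they summed to 994 and 1026 in replicates 1 and 2 and to 833 and 825 in replicates 3 and 4. Replicate 2 of CPA+veh, with the highest sum of the others, had the lowest share of Sepw1 among the 8 CPA libraries.

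**Figure D3:**
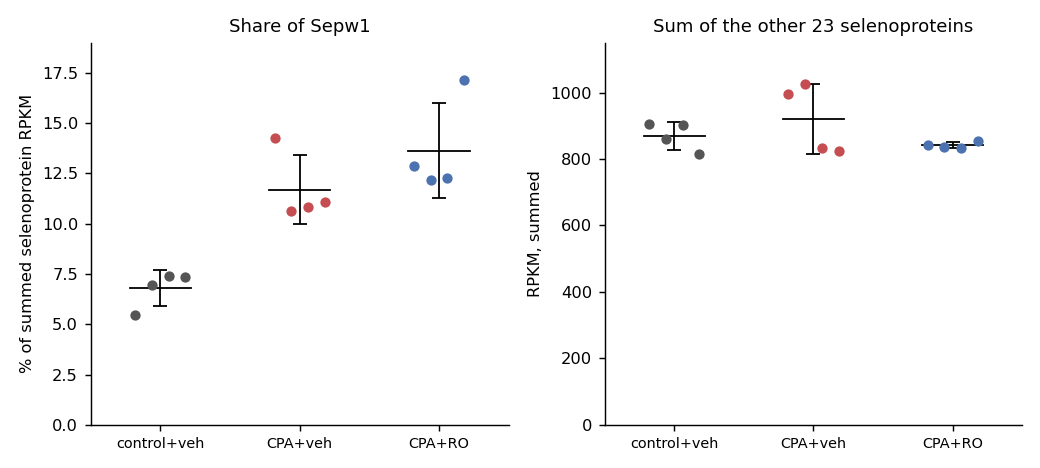
Left, Sepw1 as a percentage of the summed RPKM of 24 selenoproteins; right, the summed RPKM of the other 23; points are libraries, lines means and bars SD (n = 4 per group). The share is 5.48 to 7.42% in control+veh and 10.6 to 17.1% in the 8 CPA libraries, and the sum of the others is highest in CPA+veh replicates 1 and 2.

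None of the 23 other selenoproteins passed an adjusted p of 0.05 in CPA+veh against control+veh by edgeR, DESeq2 or limma-voom, where 0.115% of all genes were called by edgeR, 0.499% by DESeq2 and 0.0995% by limma-voom. At an unadjusted p under 0.05 by edgeR, 2 were higher and 1 lower. Of all genes, 9.94% were past that threshold, 4.99% higher and 4.94% lower. Their median log2 fold change was 0.05, beside 0.01 over all 19094 genes, with 14 above 0 and 9 below. None passed in CPA+RO against control+veh either, by the same 3 tools, where 0.11% of all genes were called by edgeR, 0.391% by DESeq2 and 0.105% by limma-voom. There none of the 23 had an unadjusted p under 0.05 (5.75% of all genes did), and the median was -0.04 beside 0.00 over all genes.

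**Figure D4:**
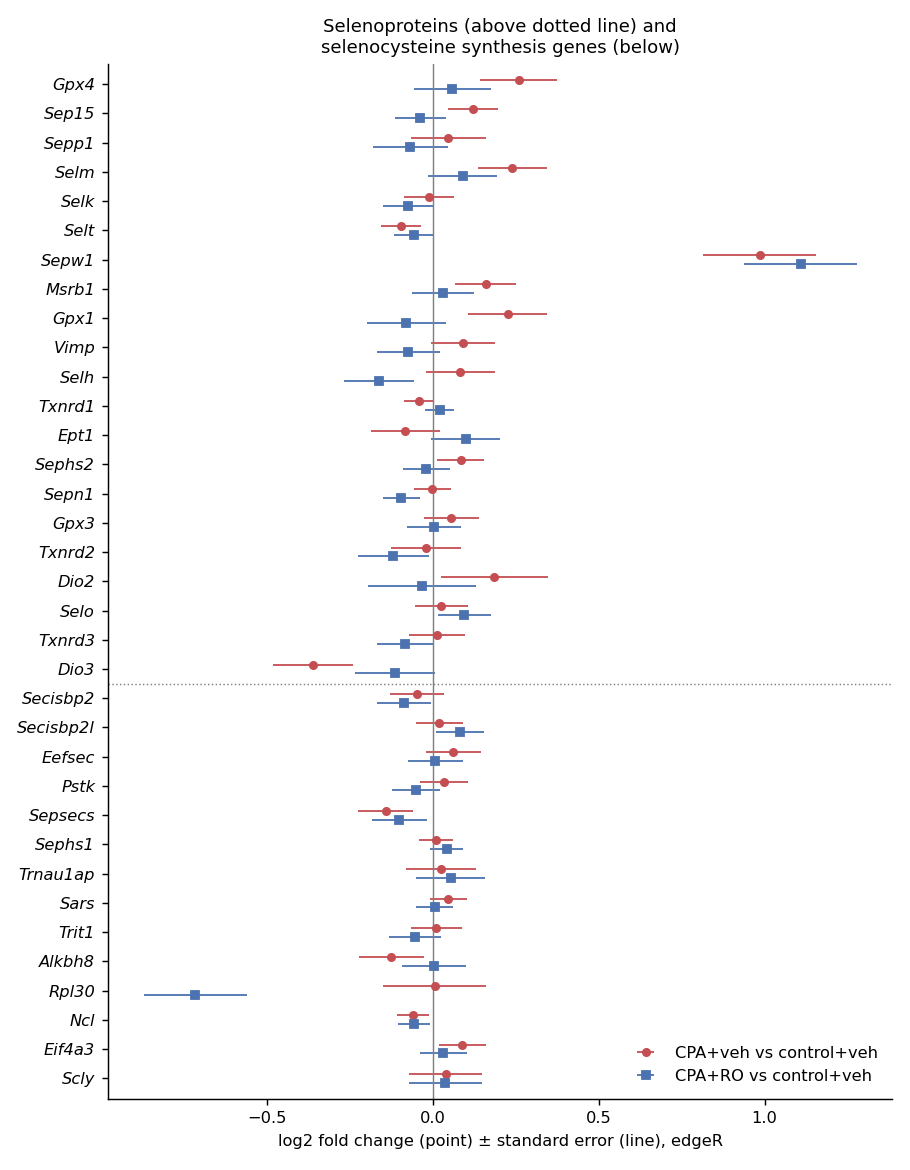
Fitted log2 fold change (points) and standard error (lines) against control+veh for 21 selenoproteins (above the dotted line, in order of control RPKM) and the 14 synthesis genes that are not selenoproteins (below), CPA+veh as circles and CPA+RO as squares; Selv, Dio1 and Gpx2 are left out for their low counts. Sepw1 stands at 0.98 and 1.11, and the 2 points farthest from 0 among the rest are those of Rpl30 in CPA+RO (-0.72) and Dio3 in CPA+veh (-0.36).

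Of the glutathione peroxidases, Gpx1 and Gpx4 were highest in 2 libraries of CPA+veh, and neither passed in either CPA group. Gpx1, which reduces hydrogen peroxide in the cytosol, was at 23.5, 24.2, 24.3 and 20.7 CPM in control+veh, at 31.5, 31.2, 23.6 and 22.2 CPM in CPA+veh and at 23.5, 19.1, 20.6 and 24.6 CPM in CPA+RO. CPA+veh replicates 1 and 2 lay above all other libraries, and replicates 3 and 4 lay within the control range. CPA+veh differed from control+veh by 0.23 on the log2 scale (SE 0.12, adjusted p = 0.535 by edgeR), and by -0.018 without replicates 1 and 2. CPA+RO was lower than CPA+veh by a log2 fold change of -0.31 that did not pass (adjusted p = 0.876), and -0.06 without those libraries.

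Gpx4, which reduces lipid hydroperoxides in membranes and guards cells from ferroptosis, showed the same pair of libraries. It was at 212, 193, 204 and 172 CPM in control+veh, at 276, 269, 211 and 177 CPM in CPA+veh and at 218, 192, 197 and 206 CPM in CPA+RO. Against control+veh, CPA+veh differed by 0.26 on the log2 scale (SE 0.12, adjusted p = 0.490), and by -0.0073 once replicates 1 and 2 were left out. CPA+RO differed by 0.06 (SE 0.12, adjusted p = 0.964). CPA+veh replicates 1 and 2 are the libraries with the high oligodendrocyte and low endothelial marker sums. The 8 microglia markers summed to 263 and 251 CPM there and to 193 to 234 in the other 10, and the astrocyte markers to 5712 and 4476 CPM against 3555 to 4224. The length trend in these libraries lay 0.089 and 0.14 above the control mean on the log2 scale at the length of Gpx1, and 0.046 and 0.090 above it at that of Gpx4. The part of these in the Gpx values was not tested.

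Thioredoxin reductases, which keep thioredoxin reduced, did not pass in any comparison. Txnrd1, the cytosolic enzyme, was at 72.9, 72.5, 73.9 and 77.7 CPM in control+veh, at 69.9, 72.3, 72.9 and 73.0 CPM in CPA+veh and at 74.7, 73.7, 75.8 and 76.8 CPM in CPA+RO. Its log2 fold changes were -0.04 in CPA+veh and 0.02 in CPA+RO (SE 0.04 each, adjusted p = 0.762 and 0.969). Every CPA+RO library was above every CPA+veh library for Txnrd1 (log2 fold change 0.06, adjusted p = 0.876), which also held for 0.906% of all genes (the reverse for 1.04%). Txnrd2, the mitochondrial enzyme, ranged from 13.9 to 18.3 CPM in control+veh, 12.7 to 17.8 in CPA+veh and from 14.6 upward in CPA+RO, so that all groups overlapped (adjusted p = 0.963 and 0.915 against control+veh).

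Sepp1 encodes selenoprotein P, the plasma carrier that brings selenium to neurons and that astrocytes also make. It was at 223, 270, 290 and 232 CPM in control+veh, at 297, 278, 205 and 267 CPM in CPA+veh and at 209, 262, 247 and 248 CPM in CPA+RO. The groups overlapped, with log2 fold changes of 0.05 and -0.07 (SE 0.11 each, adjusted p = 0.909 and 0.956). Its receptor in brain, Lrp8 (apolipoprotein E receptor 2), was at 66.2 to 75.9 CPM in control+veh, 59.5 to 74.2 in CPA+veh and 68.8 to 75.5 in CPA+RO. Lrp2, the receptor of kidney and choroid plexus epithelium, was at 1.97 to 2.97 CPM in control+veh and 2.51 to 4.52 in CPA+veh, with overlap and an adjusted p of 0.472. Lrp1, a broad endocytic receptor, was at 606 to 818 CPM in control+veh and 547 to 787 in CPA+veh.

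Among the deiodinases, Dio2 makes active thyroid hormone, in brain mainly in astrocytes. It was at 46.3, 54.3, 36.6 and 37.0 CPM in control+veh, at 69.0, 38.0, 48.5 and 42.7 CPM in CPA+veh and at 44.4, 44.9, 42.2 and 38.7 CPM in CPA+RO. The single high library was CPA+veh replicate 1, without which the difference of 0.19 from control+veh on the log2 scale (SE 0.16, adjusted p = 0.721) was -0.016. The 8 astrocyte markers summed to 5712 CPM in that library and to 3555 to 4476 in the other 11, and their part in the Dio2 value was not tested. Dio3, which inactivates thyroid hormone and acts in neurons, went the other way in CPA+veh without passing the test. It was at 4.74, 4.97, 4.95 and 4.33 CPM in control+veh, at 3.64, 3.95, 4.04 and 3.14 CPM in CPA+veh and at 4.23, 3.90, 5.21 and 4.20 CPM in CPA+RO. Every CPA+veh library was below every control library, as was also true of Selt (log2 fold change -0.10, not past the test) and of 2.72% of all genes. Dio3 differed by -0.36 on the log2 scale (SE 0.12, adjusted p = 0.378), and CPA+RO, at 0.25 above CPA+veh (adjusted p = 0.876), overlapped both groups.

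The selenoproteins of the endoplasmic reticulum did not pass in any comparison. Selm, a thioredoxin-like protein of this compartment, was at 56.3, 50.7, 53.0 and 45.0 CPM in control+veh, at 64.6, 69.2, 60.5 and 47.5 CPM in CPA+veh and at 59.8, 52.0, 49.8 and 56.3 CPM in CPA+RO. Replicates 1 to 3 of CPA+veh lay above the controls and replicate 4 within them (log2 fold change 0.24, SE 0.10, adjusted p = 0.485). Without replicates 1 and 2 the log2 fold change was 0.08. Selh, a nuclear redox protein that like Sepw1 carries a thioredoxin-like fold, was at 16.2 to 19.7 CPM in control+veh, 15.8 to 22.2 in CPA+veh and 14.9 to 18.1 in CPA+RO. Its lower level under RO6958375 did not pass against CPA+veh (log2 fold change -0.24, adjusted p = 0.876), and the difference was -0.10 without CPA+veh replicates 1 and 2. Of the selenium-sensitive trio of rodent liver, Gpx1, Sepw1 and Selh thus had log2 fold changes against control+veh of 0.23, 0.98 and 0.08 in CPA+veh, and of -0.08, 1.11 and -0.16 in CPA+RO. Gpx4 was at 0.26 and 0.06.

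The machinery that makes selenoproteins held no called gene in CPA+veh. None of its 15 genes passed there by edgeR, DESeq2 or limma-voom, which called 0.115%, 0.499% and 0.0995% of all genes. None had an unadjusted p under 0.05 by edgeR, while 9.94% of all genes did. The log2 fold changes ran from -0.14 to 0.09 with a median of 0.02. Sephs2, itself a selenoprotein that makes the selenium donor selenophosphate, was at 43.6, 37.9, 45.5 and 38.7 CPM in control+veh, at 42.4, 48.7, 41.6 and 42.8 CPM in CPA+veh and at 40.9, 38.9, 42.0 and 41.4 CPM in CPA+RO. Its log2 fold changes were 0.08 and -0.02 (SE 0.07 each, adjusted p = 0.711 and 0.981).

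Secisbp2, the SECIS binding protein, was at 12.5, 11.7, 12.4 and 12.1 CPM in control+veh, at 10.3, 12.7, 11.2 and 12.8 CPM in CPA+veh and at 11.6, 11.1, 11.2 and 11.9 CPM in CPA+RO. Its log2 fold changes were -0.05 and -0.09 (SE 0.08 each, adjusted p = 0.865 and 0.921), and all groups overlapped. Sepsecs, which completes selenocysteine on its tRNA, was at 9.32 to 10.8 CPM in control+veh and 8.31 to 9.67 in CPA+veh (log2 fold change -0.14, adjusted p = 0.572). Alkbh8, which modifies that tRNA at the anticodon, was at 8.55 to 9.99 CPM in CPA+veh and 8.98 to 10.9 in CPA+RO (log2 fold change 0.13, adjusted p = 0.876).

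In CPA+RO, the synthesis gene that stood out was Rpl30, a ribosomal protein that can also bind the SECIS element. It was at 82.9, 91.6, 90.1 and 72.9 CPM in control+veh, at 106, 88.7, 64.3 and 80.0 CPM in CPA+veh and at 61.4, 60.4, 42.9 and 40.6 CPM in CPA+RO. Every CPA+RO library lay below every library of the other groups, as held for 2.74% of all genes against control+veh and 1.04% against CPA+veh. The log2 fold change against control+veh was -0.72 (SE 0.16) and did not pass with edgeR (adjusted p = 0.158), while DESeq2 called it (adjusted p = 0.00183) and limma-voom did not. Against CPA+veh the log2 fold change was also -0.72 (adjusted p = 0.876). Ribosomal protein genes have many near-identical pseudogene copies between which reads can be split, so the level of Rpl30 is uncertain. The median over the 15 synthesis genes in CPA+RO against control+veh was 0.00.

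Against CPA+veh, CPA+RO held no called gene at all, by edgeR, DESeq2 or limma-voom, at 0% of those tested, while 4.41% had an unadjusted p under 0.05 by edgeR, 2.58% of all genes being lower. Of the 23 selenoproteins, 2 (Gpx1 and Selh) were lower at that unadjusted threshold and none higher. Their median log2 fold change was -0.10, with 16 below 0, beside -0.01 over all genes. Without CPA+veh replicates 1 and 2, left out together after the data had been seen, the median was 0.0070. The cause of the shift was not tested.

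The 28 genes for glutathione and thioredoxin metabolism, such as peroxiredoxins, glutaredoxins and superoxide dismutases, held no called gene either. None of the 26 tested passed in any comparison by edgeR, DESeq2 or limma-voom, and Gpx5 and Gpx6 were left untested with 8 and 0 counts over the 12 libraries. Of all genes, edgeR called 0.115% and 0.11% in CPA+veh and CPA+RO against control+veh, DESeq2 0.499% and 0.391%, and limma-voom 0.0995% and 0.105%. In CPA+RO against CPA+veh, each tool called 0%. At an unadjusted p under 0.05 by edgeR, 2 were higher and 1 lower in CPA+veh against control+veh, none differed in CPA+RO against control+veh, and 3 were lower with RO6958375 than with vehicle among CPA rats. The shares over all genes were 4.99% higher and 4.94% lower, 5.75% in either direction, and 2.58% lower in the same order. The medians were 0.06, -0.02 and -0.08 on the log2 scale. Prdx6, a peroxiredoxin that uses glutathione, is named here after its values were seen. It was at 103, 97.9, 88.7 and 83.3 CPM in control+veh, at 152, 130, 105 and 109 CPM in CPA+veh and at 105, 104, 89.8 and 104 CPM in CPA+RO. The CPA+veh libraries were all above the controls, as held for 1.9% of all genes, by 0.41 on the log2 scale (SE 0.11, adjusted p = 0.271), which was 0.20 without replicates 1 and 2.

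Genes whose level followed that of Sepw1 most closely over the 12 libraries were sought by Pearson's r of log2 CPM, as a description. The 5 closest with a full gene name were Ebp, a sterol isomerase (r = 0.90), Mafg, a small Maf transcription factor (0.88), Fbln1, an extracellular matrix fibulin (0.88), Cntnap1, a protein of the paranodal axon (0.88), and Pc, pyruvate carboxylase (0.87). A single unnamed locus ranked among them. Their differences between the groups were much smaller than that of Sepw1, with log2 fold changes of 0.19 to 0.28 in CPA+veh and 0.15 to 0.29 in CPA+RO. Mafg, for instance, averaged 119 ± 1.96 CPM (SD, n = 4) in controls, while CPA+veh averaged 136 ± 3.75 and CPA+RO 136 ± 4.07 CPM (SD, n = 4). Within the 8 CPA libraries r was 0.72 for Ebp, 0.23 for Mafg, 0.77 for Fbln1, 0.54 for Cntnap1 and 0.59 for Pc, so the likeness of Mafg lay mostly in the step from control to CPA. None of the 23 other selenoproteins had an r above 0.47 over the 12 libraries, a value reached by Gpx4 and Selm, and the highest among the synthesis genes was Sephs1 (0.54). The lowest r was -0.47 among those selenoproteins (Dio3) and -0.59 among the synthesis genes (Ncl).

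None of the 3 tested genes on either side of Sepw1 on chromosome 1 was called by edgeR against control+veh. Of all genes, 0.115% were called in CPA+veh and 0.11% in CPA+RO, so the absence of a call among so few genes says little about them. On the side of higher coordinates, the nearest tested genes by the GRCr8 table were Rps19l3, a ribosomal protein-like gene 5.43 kb away, Rpl9-ps30, a pseudogene, and Nop53, a factor of ribosome assembly 24.6 kb away. Nop53 averaged 54.5 ± 3.78 CPM in controls, while CPA+veh averaged 61.0 ± 7.39 and CPA+RO 52.3 ± 3.67 CPM (SD, n = 4; adjusted p = 0.525 and 0.951 against control+veh by edgeR). The log2 fold changes of Rps19l3 were 0.00 and -0.12, and those of Rpl9-ps30 were 0.19 and 0.33, neither past the test (adjusted p = 0.844 and 0.915 for Rpl9-ps30). On the other side the nearest tested gene lay 1688 kb away, past 29 genes that were not tested, and Lig1, a DNA ligase, and Zswim9, a zinc finger protein, followed. These 3 had log2 fold changes against control+veh between -0.11 and 0.18, none past the test.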

How the data were processed

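The authors deposited raw counts per gene and the RPKM computed from them, for 29009 genes and 12 libraries. The submitters' processing notes name bcl2fastq, FastQC, STAR and SAMtools with rn6 and Rnor_6.0, while their versions, the annotation and how reads were assigned to genes were not given in the sources used here. Of counts from 1 to 9, 92.7% are even. NCBI gene IDs were matched to RefSeq GRCr8 (23199 matched), which also gave names, positions and the promoter sequence. All selenoprotein and synthesis genes had a row.

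Tests used R 4.3.3 with edgeR 4.0.16 (TMM, filterByExpr by group, 1 quasi-likelihood fit of all libraries on the group), and as alternatives limma 3.58.1, DESeq2 1.42.0, other scalings and filters, log2 RPKM, a replicate block, a length correction (span 0.3) and libraries left out. Log2 CPM for likeness used a prior count of 2. The steps were tested on simulated data. The members and lists were chosen with earlier results of these data known. Named are all members, the 3 further genes of smallest unadjusted p in the selenoprotein and synthesis lists, uptake receptors, the 5 genes most like Sepw1 without LOC and similar symbols, and 3 tested neighbours on either side. Each library is 1 rat. Electrophysiology and behaviour were not analysed here.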

Additional observations from a re-analysis of the deposited data

Results flagged for a closer look

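In 3 of the 48 groups of 4 libraries examined for the members and named genes, 1 library lay far from the rest by Dixon's criterion, which chance meets in about 5% of groups. Sepw1 in CPA+RO replicate 4 was at 124 CPM, where the other CPA+RO libraries were at 82.1 to 88.0 CPM. Sephs2 in CPA+veh replicate 2 was at 48.7 CPM, where the others were at 41.6 to 42.8 CPM. Prdx6 in CPA+RO replicate 3 was at 89.8 CPM, below the others at 104 to 105 CPM.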

How the results depend on the processing

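The log2 fold change of Sepw1 against control+veh ranged over the 25 alternatives from 0.72 to 1.06 in CPA+veh and from 0.95 to 1.18 in CPA+RO. Sepw1 was chosen for being higher in these comparisons, so a value above 0 throughout is a description and no support. No other selenoprotein and no glutathione or thioredoxin gene was called in any alternative. Prdx6 in CPA+veh against control+veh came very near the threshold, with an adjusted p of 0.05003 to 0.613 over the alternatives. Of the synthesis genes, 1 (Rpl30) was called in CPA+RO against control+veh by DESeq2, without the filter on low counts and with the replicate number as a block. Its adjusted p was 0.00183 to 0.455 over the alternatives. Without CPA+veh replicates 1 and 2 together, chosen after seeing the data, the log2 fold change in CPA+veh against control+veh was -0.10 for Sepp1, -0.018 for Gpx1 and -0.0073 for Gpx4, and Gpx4 was 0.066 in CPA+RO against CPA+veh. On log2 RPKM, Txnrd1 in CPA+RO was at -0.014 (pseudocount 0.1) and -0.013 (pseudocount 1), and Sephs2 was at 0.0012 with the length correction and 0.0026 with that and the replicate block. Leaving out 1 library at a time turned the direction of some small differences. The ranges in CPA+veh against control+veh were -0.020 to 0.15 for Sepp1, -0.088 to 0.069 for Txnrd2, -0.016 to 0.31 for Dio2 and -0.10 to 0.012 for Secisbp2. In CPA+RO they were -0.13 to 0.0032 for Sepp1, -0.11 to 0.090 for Dio2 and -0.063 to 0.028 for Sephs2. The cause was not tested. Libraries with the same replicate number did not vary together (r from -0.11 to 0.10 over 12 pairs, 0 above 0.1), so the numbers were not taken as pairs. With the block, Sepw1 was at 0.97 and 1.09, and the called synthesis genes in CPA+RO against control+veh went from 0 to 1.

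Standard errors of the members were 0.04 to 0.17 on the log2 scale, and the 3 lowest selenoproteins (Selv, Dio1 and Gpx2) had too few counts for a firm level.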
